A study of Mus musculus with 7 samples.

Results

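The genes described here are the prion protein gene Prnp, the amyloid precursor protein family genes App and Aplp2, the beta-secretase genes Bace1 and Bace2, and the gamma-secretase genes Psen2, Ncstn, Psenen and Aph1a. They were chosen by symbol, for what their proteins do, and all 9 were found among the 21176 genes of the expression table. RNA was sequenced from follicular dendritic cells (FDCs), the antigen-retaining stromal cells of B-cell follicles, sorted from popliteal lymph nodes. The donors were male mice 8 to 12 weeks old that had not been immunized. There were 4 wild-type (WT) samples and 3 samples from mice knocked out for Ngfr (Ngfr KO), and the nodes of several animals were pooled in each sample. The labels do not describe the Ngfr allele or the strain. They do not say whether samples with the same replicate number were collected together, so the main fit treated the samples as unpaired. The p-values set the difference between the groups against the spread between these pools, not between single animals.

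PrP, the product of Prnp, is a glycoprotein held on the cell surface by a lipid anchor, and FDCs are known as a site where its misfolded form accumulates in lymphoid tissue during prion disease. APP and its relative APLP2 are single-pass membrane proteins. Their outer part is shed by alpha-secretases, which are ADAM metalloproteases, or by the beta-secretase BACE1, and the remaining stub is then cut inside the membrane by gamma-secretase. Gamma-secretase is a complex of a catalytic presenilin, nicastrin (Ncstn), PEN-2 (Psenen) and APH-1. The neurotrophin receptor p75, which Ngfr encodes, is cut by the same sequence of ADAM protease and gamma-secretase.

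The bases upstream of Prnp and App are shown because in Ngfr KO Prnp had the highest estimate of the 9 genes, while the App values were below those of WT in every sample. Both are from the RefSeq promoter table (build GRCm38.p6), read 5′ to 3′ on the gene's strand and ending just before the outermost annotated start site. Capitals mark the GC box (GGGCGG, the core of Sp1-type sites) and the CCAAT box, each on either strand.
Prnp, plus strand, chr2:131909678-131909927: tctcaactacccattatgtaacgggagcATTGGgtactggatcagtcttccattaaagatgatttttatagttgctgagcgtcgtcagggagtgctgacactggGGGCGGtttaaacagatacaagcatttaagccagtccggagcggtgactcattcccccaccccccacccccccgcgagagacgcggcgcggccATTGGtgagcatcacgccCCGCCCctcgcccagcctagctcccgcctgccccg
App, minus strand, chr16:85173767-85173957: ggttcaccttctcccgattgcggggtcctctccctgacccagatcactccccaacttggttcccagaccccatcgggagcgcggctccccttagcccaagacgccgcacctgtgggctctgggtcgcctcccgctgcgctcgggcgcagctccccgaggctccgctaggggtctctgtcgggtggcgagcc
The 250 bases of Prnp held 2 GC boxes, starting 146 and 35 bases before the start site, and 2 CCAAT boxes, starting 222 and 53 bases before it. A GC box was found in 32.7% and a CCAAT box in 33.8% of the same 250-base window of all 32851 RefSeq promoter entries. The 191 bases of App held neither. The outermost start site of App lies 59 bases upstream of its RefSeq start site. The windows compared with it were the first 191 of the 250 bases of each entry, so they left out the bases next to the RefSeq start site. Of these windows 23.1% had a GC box and 26.9% a CCAAT box. Neither window held the STAT element TTCNNNGAA, which was in 7.02% of 250-base windows and 5.54% of 191-base windows. The Prnp window held 1 TATAAA, 186 bases before the start site, on the strand opposite to the gene, so it reads TTTATA above. With either strand counted, 12.4% of 250-base windows had one. The App window held no TATAAA on either strand, where 8.78% of the 191-base windows had one. The GC content was 58.8% in the Prnp window and 69.6% in the App window. Of the 9 genes, 7 had an entry in the promoter table, and Bace1 and Bace2 had none.

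The WT libraries held 17244925 to 18873542 reads and the Ngfr KO libraries 20741770 to 21538400. Ngfr itself had normalised values of 0.377, 0.677, 1.30 and 1.14 in WT replicates 1 to 4 and of 0.305, 0.353 and 0.184 in Ngfr KO replicates 1 to 3, with 46 to 104 reads in the Ngfr KO libraries. The mean Ngfr KO value was 0.32 times the WT mean. Ngfr failed the filter on low values and was added to the fit singly. Its change on the log2(value + 1) scale, which compresses values this low, was -0.52 (limma adjusted p = 0.0431). By edgeR on recovered reads the log2 change was -1.55 (adjusted p = 0.0574). The limma result lost the 0.05 threshold in every fit that left out 1 sample except the one without WT replicate 1, with log2 changes of -0.41 to -0.56. The labelled cell type was checked with 15 FDC markers, none of which was at 0 in any sample. Their summed normalised value ranged from 1831 to 5114 in the WT samples and from 7876 to 10400.2 in the Ngfr KO samples, with 12 of 15 called higher. The summed value of 14 endothelial markers ranged from 133 to 182 in the WT samples and from 28.4 to 52.1 in the Ngfr KO samples, with 13 of 13 tested called lower. No endothelial marker was at 0 in any sample, but Flt1 in WT replicate 3 was at 0.00435, the value of 1 read there. The sums of 10 reticular stroma markers (WT 92.5 to 226, Ngfr KO 252 to 361; 3 of 8 tested called higher, none lower) and 9 myeloid markers (19.7 to 28.1 and 29.6 to 63.2; 2 of 5 called higher, none lower) did not overlap. Without Dcn the stroma sums overlapped (53.1 to 157 and 101 to 130), and without Lyz2 so did the myeloid sums (19.1 to 25.6 and 25.2 to 35.1). The sums of the 5 measured Schwann cell and nerve markers (1.58 to 4.28 and 5.66 to 8.17) did not overlap either, with 2 of 2 tested called higher. Those of B-cell markers (12.1 to 19.0 and 9.47 to 29.3), T-cell markers (5.92 to 12.6 and 3.59 to 10.4) and pericyte markers (18.7 to 50.9 and 32.6 to 63.4) overlapped. Adgre1, Itgam and Tyrobp of the myeloid list, Cspg4 and Notch3 of the pericyte list and S100b of the nerve list were at 0 in at least 1 sample.

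In Ngfr KO, Prnp, Bace2 and Ncstn rose, while App, Aplp2, Bace1, Psen2 and Psenen did not pass the test. Prnp had 4.19 times its mean WT value, and Bace2 and Ncstn had 1.89 and 1.88 times theirs. All log2 changes below are Ngfr KO minus WT on the log2(value + 1) scale, and a gene was called when its limma p-value, adjusted over all genes tested, was under 0.05. A total of 8 of the 9 genes passed the filter on low values, each with a value above 1 in every sample, and 3 of these were called, all higher. Over all 8326 genes tested, 34.2% were called, 18.3% higher and 15.8% lower. The median log2 change was -0.22 over the 8 genes and 0.02 over all genes tested. In 5 of the 8 genes the values of the groups did not overlap, which held for 40.9% of all genes tested. By edgeR on recovered reads, which called 15.2% of its 16751 genes, the same 3 were called out of 9.

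**Figure D1:**
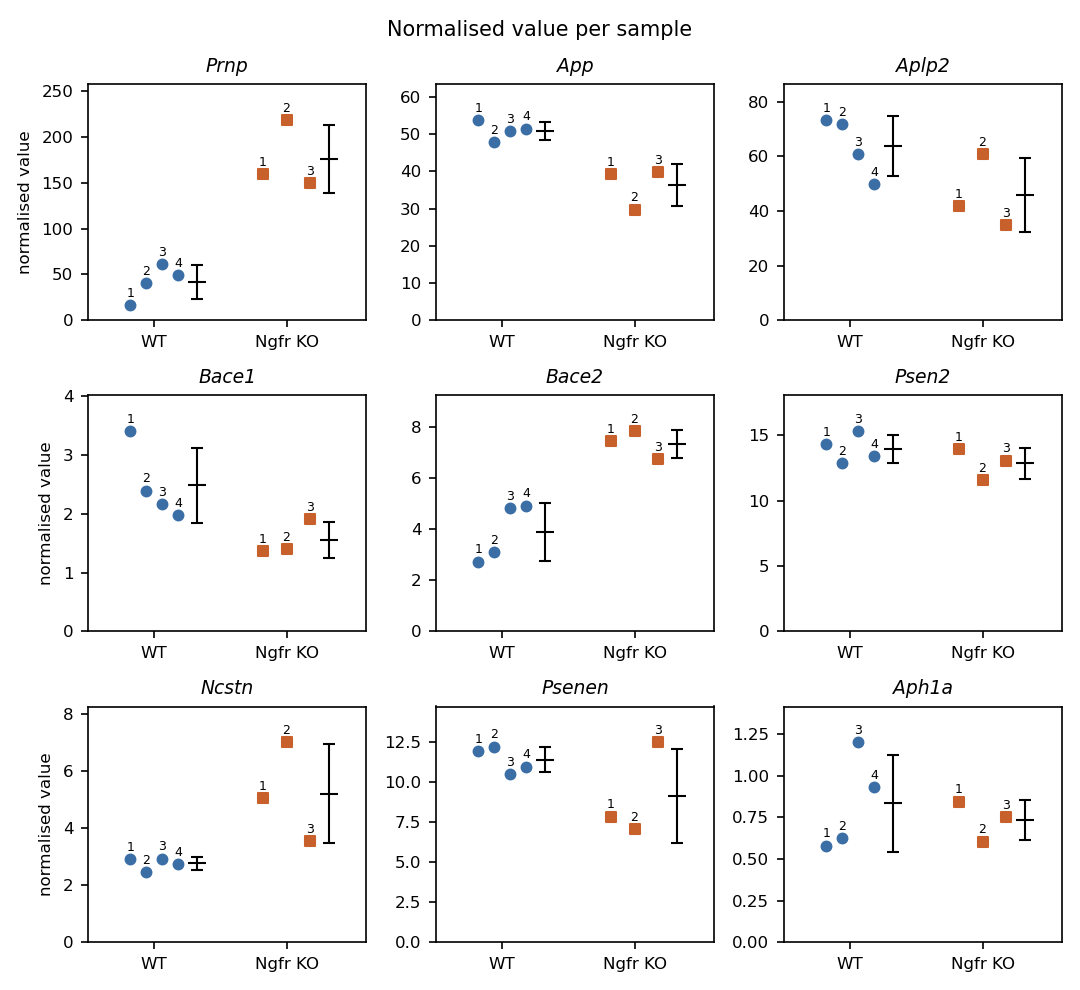
Normalised value (vertical axis, from 0) of each of the 9 genes in WT (blue circles, n = 4) and Ngfr KO samples (orange squares, n = 3). Small digits are replicate numbers, and black bars give the mean and SD. The groups are apart for Prnp, App, Bace1, Bace2 and Ncstn and overlap for Aplp2, Psen2, Psenen and Aph1a.

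Prnp (ENSMUSG00000079037) lies on the plus strand of chromosome 2 from 131909928 to 131938429 (GRCm38, as are all coordinates here). Its normalised value was 16.3, 40.6, 61.1 and 49.2 in WT replicates 1 to 4 and 159, 218 and 149 in Ngfr KO replicates 1 to 3. WT replicate 1 was the lowest sample, and the lowest Ngfr KO value was more than 2 times the highest WT value. Means were 41.8 ± 19.0 (SD) over the 4 WT samples and 175 ± 37 (SD) over the 3 Ngfr KO samples, from 4188 to 64144 reads per library. On the log2 scale Prnp rose by 2.17 ± 0.37 (SE), with a limma adjusted p of 0.00151, and ranked 25th from the most raised of 8326 genes. An exact permutation of the samples (two-sided) returned p = 0.0286, the smallest that the 35 splits of 7 samples allow. Prnp was called in all 18 alternative fits, and with WT replicate 1 left out its log2 change was 1.78. Its exons share 145 bases with Prn, an annotated gene on the same strand, and reads there cannot be assigned to either.

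Prnp and the FDC sum were both higher in the Ngfr KO samples than in the WT samples. Of the 7, WT replicate 1 had both the lowest Prnp value and the lowest FDC sum, and the 3 Ngfr KO samples were highest in both. Within the groups the order partly differed. Ngfr KO replicate 3 had the highest FDC sum (10400.2) and the lowest Prnp value of its group (149). Among WT samples, replicate 4 had the highest sum (5114) and replicate 3 the highest Prnp value (61.1). As a percent of the FDC sum, Prnp was 0.890, 1.02, 1.47 and 0.962 in WT and 2.02, 2.51 and 1.43 in Ngfr KO, so the groups overlapped through Ngfr KO replicate 3 and WT replicate 3. Cxcl13, the B-cell attracting chemokine, made up 27.1% to 59.5% of that sum. With Cxcl13 taken out of the sum, a choice made after its values were seen, Prnp was 1.68% to 2.59% of it in WT and 2.91% to 3.44% in Ngfr KO, without overlap. Without Cxcl13, Clu was the largest marker of the sum in every sample. Its values ran from 669 up to 1489 among WT samples and from 2829 up to 3191 among Ngfr KO samples. Whether the groups overlapped thus depended on the markers summed, and a sum with Clu also taken out was not tested. In RNA from pooled cells, fewer cells of a type and less RNA per cell cannot be told apart. The part of cell makeup in the difference was not tested.

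**Figure D2:**
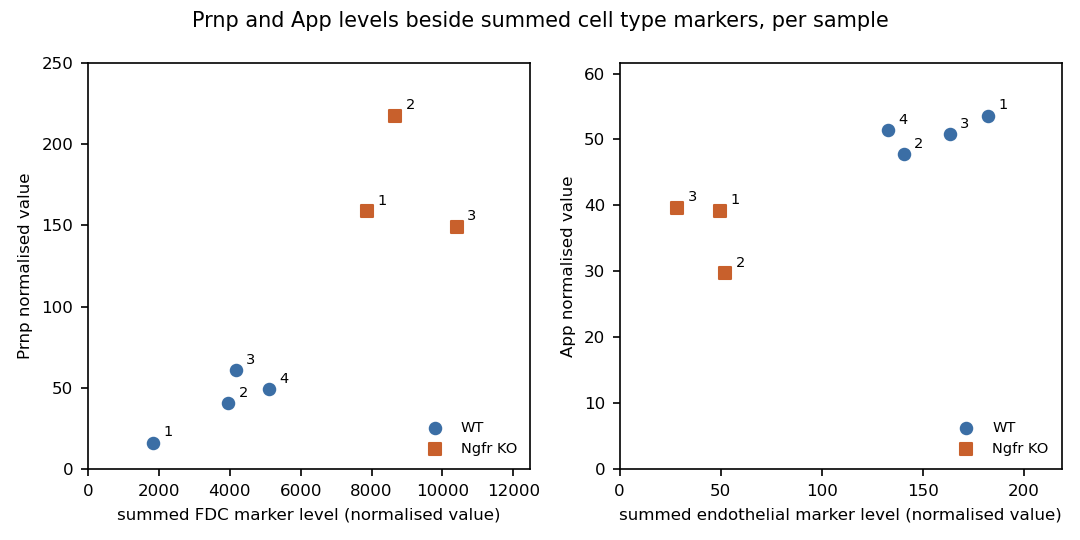
Left, Prnp normalised value against the summed value of 15 FDC markers. Right, App normalised value against the summed value of 14 endothelial markers. Each point is 1 sample (blue circles WT, orange squares Ngfr KO, digits are replicate numbers), and both axes start at 0. Ngfr KO samples lie at the upper right on the left and at the lower left on the right.

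App and Aplp2 were not called. App (ENSMUSG00000022892, chromosome 16, 84949685 to 85173766, minus strand), the precursor of amyloid beta, had values of 53.6, 47.7, 50.8 and 51.4 in WT replicates 1 to 4 and of 39.2, 29.7 and 39.7 in Ngfr KO replicates 1 to 3. No Ngfr KO value reached the lowest WT value. The means were 50.9 ± 2.4 (SD, n = 4) and 36.2 ± 5.6 (SD, n = 3). App had an estimate of -0.49 ± 0.19 (SE) with a 95% interval of -0.90 to -0.08 (limma adjusted p = 0.0598). On App alone, with no adjustment over genes, the two-sided exact permutation p was 0.0286. App passed the threshold in 4 of 18 alternatives: quantile normalization (-0.56, adjusted p = 0.0249), robust variance estimation (adjusted p = 0.030), array weights (-0.37, adjusted p = 0.0249) and without Ngfr KO replicate 3 (-0.56, adjusted p = 0.0322). With array weights, 4881 of all 8326 genes tested passed it. Relative to the endothelial sum, which also was lower in every Ngfr KO sample, App stood at 29.4% to 38.8% in the WT samples and at 57.0% to 139% in the Ngfr KO samples.

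Aplp2 (ENSMUSG00000031996, chromosome 9, 31149557 to 31211815, minus strand), whose protein resembles APP but lacks the amyloid beta sequence, had values of 73.1, 71.7, 60.7 and 49.8 in WT replicates 1 to 4. In Ngfr KO replicates 1 to 3 it had 41.8, 60.8 and 34.8. Ngfr KO replicate 2 lay inside the WT range, and the other 2 below it. For Aplp2 the estimate was -0.49 ± 0.24 (SE) with a 95% interval of -1.0 to 0.02 (limma adjusted p = 0.121; two-sided exact permutation p = 0.143). The estimate was as large as that of App, with a wider spread. Aplp2 passed the threshold only with array weights (-0.65, limma adjusted p = 0.00322), a fit that called 4881 of 8326 genes.

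The beta-secretase genes had estimates of opposite sign. Bace1 (ENSMUSG00000032086, chromosome 9, 45838580 to 45864399, plus strand), the main beta-secretase of neurons, had values of 3.40, 2.39, 2.16 and 1.97 in WT replicates 1 to 4. In Ngfr KO replicates 1 to 3 it had 1.36, 1.39 and 1.91. The groups did not overlap, but Ngfr KO replicate 3 was within 0.1 of WT replicate 4. For Bace1 the estimate was -0.44 ± 0.17 (SE) with a 95% interval of -0.81 to -0.07 (limma adjusted p = 0.0631; two-sided exact permutation p = 0.0571). Bace1 passed the threshold with array weights (limma adjusted p = 0.00210) and without WT replicate 4 (-0.51, adjusted p = 0.0482). The array weights fit called 4881 of 8326 genes. Of its 6348 annotated exon bases, 975 are shared with Rnf214 on the opposite strand. The library kit does not mark strand, so reads there cannot be assigned to either gene.

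Bace2 (ENSMUSG00000040605, chromosome 16, 97356742 to 97442936, plus strand), the paralog of Bace1 whose product mostly cuts APP within the amyloid beta sequence, rose. Its values were 2.74, 3.10, 4.83 and 4.92 in WT replicates 1 to 4 and 7.46, 7.83 and 6.75 in Ngfr KO replicates 1 to 3. Every Ngfr KO sample exceeded every WT sample. The means were 3.90 ± 1.14 (SD, n = 4) and 7.35 ± 0.55 (SD, n = 3). Bace2 rose by 0.80 ± 0.19 (SE) on the log2 scale (limma adjusted p = 0.00857; two-sided exact permutation p = 0.0286). Bace2 was called in all 17 alternatives that tested it. Set against the FDC sum without Cxcl13, Bace2 was lower in Ngfr KO (0.124% to 0.145%) than in WT (0.193% to 0.282%), while with Cxcl13 in the sum the groups overlapped (0.0649% to 0.0947% and 0.0782% to 0.149%).

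Per kb of annotated exon, the level of Bace2 relative to Bace1 was 0.648, 1.04, 1.80 and 2.01 in WT replicates 1 to 4. In Ngfr KO replicates 1 to 3 it was 4.41, 4.52 and 2.85. Bace1 was thus the higher of the pair in WT replicate 1 only. This ratio was formed after the values were seen and was not tested.

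Among the gamma-secretase genes, Ncstn rose and the others did not pass the test. Ncstn (ENSMUSG00000003458, chromosome 1, 172066013 to 172082795, minus strand), which encodes the substrate-binding subunit nicastrin, had values of 2.92, 2.47, 2.94 and 2.75 in WT replicates 1 to 4. In Ngfr KO replicates 1 to 3 it had 5.06, 7.01 and 3.56. The WT samples lay close together, and the Ngfr KO samples were spread over a range wider than the whole WT range. Mean values were 2.77 ± 0.22 (SD, n = 4) and 5.21 ± 1.73 (SD, n = 3). Ncstn rose by 0.68 ± 0.19 (SE) on the log2 scale (limma adjusted p = 0.0162; two-sided exact permutation p = 0.0286). The Ncstn call was lost without a filter (limma adjusted p = 0.0568) and without Ngfr KO replicate 2 (0.48, adjusted p = 0.0806). Set against the FDC sum without Cxcl13, Ncstn was lower in Ngfr KO (0.0694% to 0.111%) than in WT (0.125% to 0.300%), and with Cxcl13 in the sum the groups overlapped (0.0342% to 0.0809% and 0.0538% to 0.159%). Ncstn shares 195 exon bases with Copa on the opposite strand.

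Psen2 (ENSMUSG00000010609, chromosome 1, 180227004 to 180263438, minus strand), one of the catalytic presenilins, had values between 11.6 and 15.3 in all 7 samples. They were 14.3, 12.8, 15.3 and 13.4 in WT replicates 1 to 4 and 13.9, 11.6 and 13 in Ngfr KO replicates 1 to 3. The groups overlapped. The Psen2 estimate was -0.11 ± 0.16 (SE) with a 95% interval of -0.46 to 0.24 (limma adjusted p = 0.602; two-sided exact permutation p = 0.286). That interval still allows a change in either direction.

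Psenen (ENSMUSG00000036835, chromosome 7, 30561863 to 30563627, minus strand), the gene of PEN-2, which helps the presenilin mature, had values of 11.9, 12.2, 10.5 and 10.9 in WT replicates 1 to 4. In Ngfr KO replicates 1 to 3 it had 7.82, 7.06 and 12.4. Ngfr KO replicate 3 was above all WT samples, and the other 2 were below all of them. The Psenen estimate was -0.33 ± 0.19 (SE) with a 95% interval of -0.75 to 0.09 (limma adjusted p = 0.202). Without Ngfr KO replicate 3 it was -0.55 (limma adjusted p = 0.0214), and array weights also brought it past the threshold (-0.51, adjusted p = 0.00384). The array weights fit called 4881 of 8326 genes. Psenen shares 119 exon bases with U2af1l4 on the opposite strand.

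Aph1a (ENSMUSG00000015750, chromosome 3, 95893969 to 95898288, plus strand), a scaffold subunit, was the lowest of the 9. Its values were 0.580, 0.625, 1.20 and 0.931 in WT replicates 1 to 4 and 0.845, 0.604 and 0.753 in Ngfr KO replicates 1 to 3. It failed the filter on low values, and 149 to 276 reads per library covered it. Added to the fit, it had an estimate of -0.07 ± 0.16 (SE) with a 95% interval of -0.41 to 0.27 (limma adjusted p = 0.745). Without WT replicate 3, the highest sample, the estimate was 0.02. By edgeR on recovered reads, with all samples, the log2 change of Aph1a was -0.12 ± 0.34 (SE, edgeR adjusted p = 0.848). Aph1a shares 445 exon bases with Car14 on the opposite strand.

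**Figure D3:**
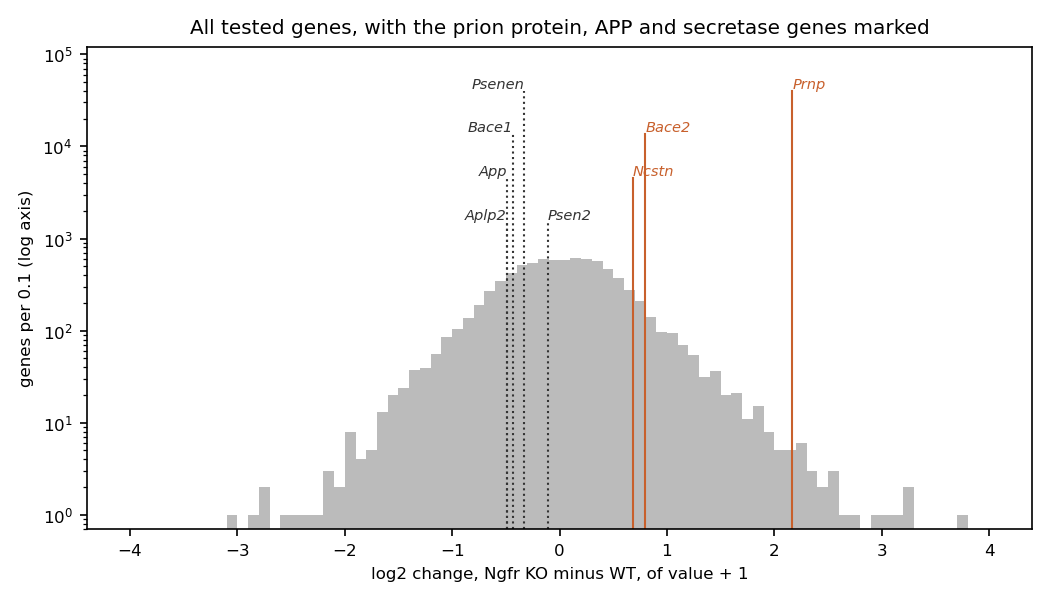
Histogram of the log2 change (horizontal axis, log2(value + 1), Ngfr KO minus WT) of the 8326 tested genes, with the number of genes per bin of 0.1 on a log axis. Solid orange lines mark the called genes Prnp (2.17), Bace2 (0.80) and Ncstn (0.68), and dotted lines the 5 genes not called, from -0.49 to -0.11. Line heights carry no value.

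Levels of different genes were compared per kb of annotated exon. In WT the order from the highest was Prnp (17.8 ± 8.1 per kb, SD, n = 4), Aplp2 (10.9 ± 1.8), Psenen (8.93 ± 0.63), App (3.92 ± 0.19), Psen2 (3.22 ± 0.25), Ncstn (0.697 ± 0.054), Bace2 (0.494 ± 0.145), Bace1 (0.391 ± 0.10) and Aph1a (0.242 ± 0.084). The samples of Prnp and Aplp2 overlapped, as did those of Aplp2 and Psenen, of Ncstn and Bace2, of Bace2 and Bace1, and of Bace1 and Aph1a. Psenen, App and Psen2 were each apart from the gene next below. In Ngfr KO, Prnp stood at 74.8 ± 15.8 per kb (SD, n = 3), with all 3 samples at 63.7 or above, and Aplp2 (7.80 ± 2.28) and Psenen (7.14 ± 2.29) were next and overlapped. Psen2 (2.97 ± 0.27) and App (2.78 ± 0.43), below both, overlapped as well. Ncstn (1.31 ± 0.44) and Bace2 (0.932 ± 0.069) overlapped too. With the longest transcript as the length, 35 of the 36 pairs kept their order in WT, and App and Psen2 changed places. The level of Prnp relative to Aplp2 spanned 0.559 to 2.52 among the WT samples and 8.98 to 10.7 among the Ngfr KO samples.

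The genes most like Prnp over the 7 samples, by Pearson correlation of log2(value + 1), were Rab32 and Tesc (both r = 0.997) and Stoml1 and Gtpbp4 (both 0.995). Rab32 had a mean of 5.30 in WT and 20.6 in Ngfr KO, and Tesc 2.02 and 9.71. A total of 384 genes had r above 0.95 with Prnp, and all of these values share the step between the groups. The genes most like App were Pikfyve (r = 0.990), Sdad1 (0.988), Zfp91 (0.987) and Dvl1 (0.983), and 79 genes had r above 0.95 with App. Zfp91 fell from 2.76 to 1.42.

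Of the close relatives outside the 9 genes, Aplp1, the neuronal APP family member, had normalised values of 0.381, 1.10, 1.40 and 0.862 in WT replicates 1 to 4 and 2.82, 5.10 and 2.90 in Ngfr KO replicates 1 to 3. It rose by 1.24 ± 0.22 (SE) on the log2 scale (limma adjusted p = 0.00174). Its WT values were near the pseudocount, and edgeR on recovered reads gave a log2 change of 2.02 (adjusted p = 0.0113). Within the APP family, Aplp1 was thus called higher, while App and Aplp2 had estimates below 0. In WT, Aplp1 was present at 0.311 per kb and in Ngfr KO at 1.20 per kb, below Aplp2 and App in both.

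Aph1b, Aph1c and Prnd, the gene of the prion-like protein doppel, failed the filter on low values, and had estimates of -0.16, 0.05 and 0.06 when added (limma adjusted p = 0.440, 0.816 and 0.795). The log2(value + 1) scale compresses changes of values this low. By edgeR on recovered reads the log2 changes were -0.29 ± 0.32, 0.55 ± 1.25 and 0.51 ± 0.81 (SE; edgeR adjusted p = 0.580, 0.807 and 0.717). Of the 5 listed relatives, only Aplp1 passed the filter.

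The alpha-secretases and their partners split. Adam9 rose by 0.66 ± 0.16 (SE) on the log2 scale (limma adjusted p = 0.00777), with values of 5.89 ± 0.41 in WT and 9.91 ± 1.32 in Ngfr KO (SD) that did not overlap. Adam10, the main APP alpha-secretase, had 13.5 ± 2.9 in WT and 12.1 ± 1.9 in Ngfr KO (log2 change -0.14, limma adjusted p = 0.594). Adam17, which sheds p75, had 4.16 ± 1.00 and 3.37 ± 0.31 (log2 change -0.22, limma adjusted p = 0.345). Timp3, an inhibitor of ADAM and matrix proteases, had 74.1 ± 20.4 in WT and 32.3 ± 4.7 in Ngfr KO, and it fell by 1.14 ± 0.24 (SE) on the log2 scale (limma adjusted p = 0.00436). Of the tetraspanins that escort ADAM10, Tspan15 rose by 0.49 (limma adjusted p = 0.0462), Tspan5 fell by 0.74 (adjusted p = 0.0214), and Tspan14 had an estimate of -0.27 (adjusted p = 0.295). The values of Tspan5 were near the pseudocount, with means of 1.35 in WT and 0.351 in Ngfr KO. Its edgeR log2 change was -1.88 (edgeR adjusted p = 0.0232). The call of Tspan15 was lost without WT replicates 1, 2 or 4 and without Ngfr KO replicates 1 or 2 (log2 changes 0.34 to 0.50, limma adjusted p 0.0851 to 0.196). That of Tspan5 was lost without Ngfr KO replicates 1 (-0.71, adjusted p = 0.0654) or 2 (-0.74, adjusted p = 0.0633). Rhbdf1 and Rhbdf2, partners of ADAM17, failed the filter on low values, with log2 changes of 0.17 and -0.19 (limma adjusted p = 0.503 and 0.332). Their edgeR log2 changes were 0.46 ± 0.38 and -0.69 ± 0.54 (SE, edgeR adjusted p = 0.450 and 0.425). Of the 9 listed genes 7 were tested, 2 were called higher and 2 lower.

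**Figure D4:**
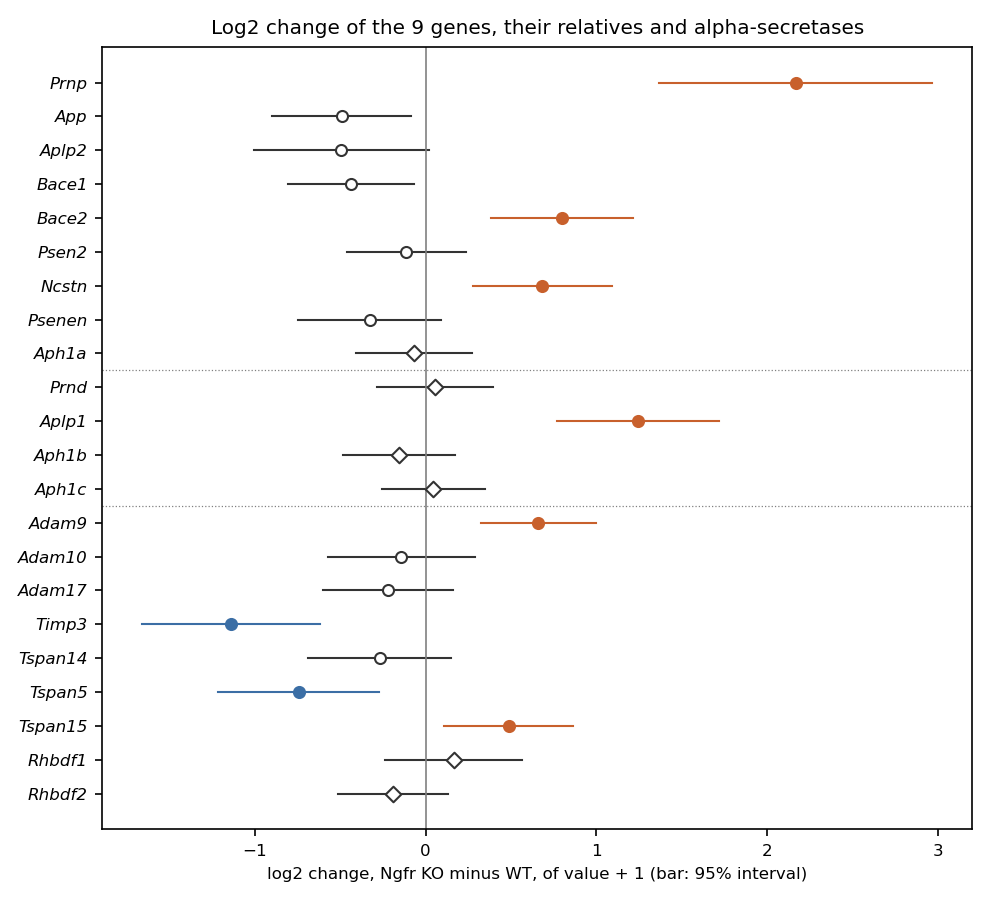
Log2 change of log2(value + 1), Ngfr KO minus WT, with its 95% interval from limma. The upper block holds the 9 genes, the middle block their relatives and the lower block the alpha-secretases and partners. Filled orange marks were called higher, filled blue lower, open marks not called, and diamonds are genes that failed the filter and were added singly. On this scale, which compresses the changes of genes with low values, Prnp (2.17) has the highest estimate and Timp3 (-1.14) the lowest. By edgeR on recovered reads the log2 change of Tspan5 (-1.88) was below that of Timp3 (-1.12).

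Other genes around APP, PrP and the secretases were taken from 6 further lists, given here by counts and by the genes called in all 7 fits that left out 1 sample. Those were 13 of the 22 genes that the naming rule selected from these lists. Among intramembrane proteases, 4 of 6 tested were called, all higher (list median log2 change 0.70), among them the rhomboid Rhbdl2 (1.44) and H13 (0.83), the gene of signal peptide peptidase. Among APP adaptors and sorting factors, 2 of 13 were called higher and 4 lower (median -0.03). The endocytic adaptors Dab2 (-2.17) and Picalm (-0.85) fell. Among secretase modulators, 3 of 11 were called higher and 2 lower (median 0.27).

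Of 15 known gamma-secretase substrates tested, 3 were called higher and 7 lower, with a median log2 change of -0.37 against 0.02 over all genes tested. Kdr (-1.84), a receptor for vascular endothelial growth factor, and Cdh5 (-1.55), the endothelial cadherin, fell, and both are also among the 14 endothelial markers. Il1r1, the interleukin 1 receptor, rose by 0.92. The part of the endothelial markers in this list's count was not tested.

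Among enzymes that degrade amyloid beta, 3 of 10 were called higher and 2 lower (median 0.28). The lysosomal protease gene Ctsb rose by 1.12 on the log2 scale, from 20.1 ± 3.4 to 44.7 ± 7.3 (SD), and Ece1, the endothelin-converting enzyme, fell by 1.32. Among PrP partners and receptors, 3 of 9 were called higher and 2 lower (median 0.14). Adgrg6, the receptor of the PrP amino-terminal part on Schwann cells, rose by 0.82, as did the adhesion molecule Ncam1, also by 0.82. Ncam1 is also 1 of the 5 measured Schwann cell and nerve markers, and their part in this change was not tested. Hspg2 fell by 0.60 and the caveolin gene Cav1 by 1.50, although the groups overlapped for Cav1 and its edgeR adjusted p was 0.0670. The values of Hspg2 were near the pseudocount, with means of 1.07 in WT and 0.373 in Ngfr KO. Its edgeR log2 change was -1.43 (edgeR adjusted p = 0.0258). Over all lists without the 9 genes, 72 of 113 genes were tested, and 21 were called higher and 19 lower. That is 55.6% of the genes tested, where 34.2% of all genes were called.

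**Figure D5:**
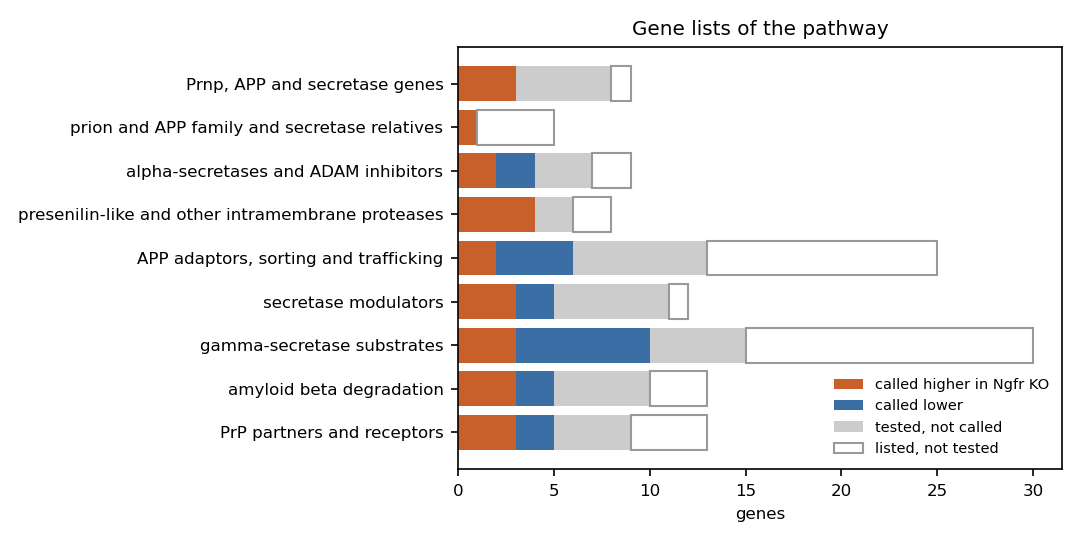
Number of genes (horizontal axis) in each list called higher in Ngfr KO (orange), called lower (blue), tested and not called (grey) or listed and not tested (white). Among the 9 genes 3 were called higher and none lower, and among gamma-secretase substrates 3 were called higher and 7 lower.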

How the data were processed

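The deposited values are a normalised signal, 1 per gene and sample, which the authors' table calls TMM (trimmed mean of M values). Per the submitters' processing notes, bcl2fastq 2.20.0.422 and the build mm10 were used; the aligner, counter and annotation are not given in the sources used here. Per the labels' protocols, cDNA came from SMART-Seq v4 and libraries from Nextera XT. In each sample 100% of the deposited signal values were whole multiples of 1 step (tolerance 0.05), so reads were recovered; a value of 1 is worth 230 to 295 reads. No gene length was divided out. The 95% intervals of log2 changes come from limma and cover the spread between samples.

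limma 3.58.1 in R 4.3.3 (eBayes with trend) was fitted to log2(value + 1) of all 7 samples without covariates, on genes reaching a value of 1 in 3 or more samples, with Benjamini-Hochberg adjustment over all genes. Genes failing the filter were added singly. edgeR 4.0.16 (quasi-likelihood, filterByExpr, TMM) was run on recovered reads. Alternatives were pseudocounts 0.1 and 5, no filter, a filter at 10, array weights, a replicate block, robust eBayes with no trend, median ratio scaling, quantile normalization, thinned reads and leaving out each sample. In a test on simulated data where 200 genes differed 4-fold, limma recovered 99% and edgeR 100%. Of 215 limma calls among 8247 genes, 7.91% were unchanged genes, more than the threshold of 0.05 aims at. Of 209 edgeR calls, 4.31% were. Far fewer genes were changed there than the 34.2% called in the data, so the errors in that setting were not tested. The changed genes were drawn only from those above a minimum value in all 7 samples. Recovery of smaller changes and of genes with low values was not tested.

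Coordinates and exon lengths came from GENCODE M21 (GRCm38, the assembly of mm10), which matched 21118 of 21176 identifiers. The genes, lists and tests were chosen with earlier results of these data known. Named genes were the 9, Ngfr, the relatives, the alpha-secretases, up to 2 called genes per direction from each other list, and the 4 genes most correlated with Prnp and with App; from the other lists, genes that lost their call when 1 sample was left out are only counted. Listed genes missing from the table (5 of 113) were not analysed here. After values were seen, the lists were corrected by identity: signal peptide peptidase was entered under its symbol H13, and Vegfa and Bri3 were removed. Another gene is not reported here and was left out of the list counts.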

Additional observations from a re-analysis of the deposited data

Results flagged for a closer look

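In 61 results the 4 WT values were compared for a sample far from the others by Dixon's criterion, and 2 were flagged. Chance gives about 1 in 20, or 3.05 of the 61, so the number flagged was not above it. Picalm was at 13.6 in WT replicate 1, above the 11.5 to 11.7 of the remaining WT samples. WT replicate 4 had a summed reticular stroma marker level of 226, where the remaining WT samples had 92.5 to 103. None of the 9 genes was among them.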

How the results depend on the processing

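Of the 9 genes, 3 were called, and 1 was called with the filter at 10 (5 tested), 7 with array weights (3 higher, 4 lower) and 2 to 5 when 1 sample was left out (5 without Ngfr KO replicate 3). Of the genes in the other lists, 40 were called, against 22 with no filter, 11 with the filter at 10 (18 tested) and 23 to 39 when 1 sample was left out (23 without Ngfr KO replicate 1). Over all genes, 2844 of 8326 were called, against 535 of 1297 with the filter at 10 and 4881 of 8326 with array weights. When 1 sample was left out, 1614 to 3006 were called (1870 without WT replicate 1, 1803 without Ngfr KO replicate 1 and 1614 without Ngfr KO replicate 2). The cause was not tested beyond the smaller number of genes under the stricter filter.

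Prnp kept its call in 18 of 18 alternatives (log2 changes 1.78 to 2.39), Bace2 in 17 of 17 (0.48 to 0.99) and Ncstn in 15 of 17 (0.38 to 1.00). Psen2 changed sign with array weights (0.024), Aph1a with array weights (0.098), and Prnd with array weights (-0.062) and the replicate block (-0.002). When 1 sample was left out, the estimates ran from -0.14 to 0.022 for Aph1a, from -0.098 to 0.14 for Prnd, from -0.032 to 0.14 for Aph1c and from -0.034 to 0.30 for Rhbdf1. None of these was called in any of these fits. Of the 25 other called genes named in the text, 17 kept their call in every alternative that tested them and none changed sign.

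The labels do not say that replicate numbers pair the samples, and deviations of same-numbered samples correlated at 0.298, -0.0593 and -0.0108. With the replicate block 2717 genes were called, 3 of the 9 genes, and 39 in the other lists. With the block, Ngfr (limma adjusted p = 0.0883), Tspan15 (0.10) and Pikfyve (0.0645) were no longer called, and no other call of a gene named in the text changed. Aph1a failed the filter on low values and had at most 276 reads in any library.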
